A study of Drosophila melanogaster with 20 samples.

Results

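The transcripts described here are FBtr0077014 of LanA and FBtr0072789 of alpha-Spec, 2 of the 15473 transcripts on the array. They were chosen by their FlyBase transcript IDs, with earlier results of these data known. A RefSeq gene table of Drosophila melanogaster lists these IDs as synonyms of LanA and of alpha-Spec. LanA encodes a laminin alpha chain, and alpha-Spec encodes alpha-spectrin. Wings dissected from Drosophila melanogaster were measured on 20 NimbleGen arrays, with total RNA of 10 wings per array and 5 arrays per group. Control and Tkv wings were taken at each of 2 stages, from wandering larvae of the last instar and from pupae 24 h after pupa formation, which gives 4 groups. Tkv wings expressed activated Thickveins through Gal4 and UAS, and control wings came from a matched strain with no UAS transgene. All animals, controls included, grew at 18 °C and were moved to 28 °C for 10 h before dissection. No source used here names the Gal4 driver or the cells in which it was active, and other differences between the strains cannot be told apart from the transgene.

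Laminins are secreted, cross-shaped proteins built of an alpha, a beta and a gamma chain. They are a main component of the basement membrane, the sheet of extracellular matrix on the basal side of an epithelium, and in flies they are bound by integrins, through which the dorsal and ventral wing epithelia adhere. Alpha-spectrin lies on the other side of the plasma membrane. It pairs with a beta-spectrin in the actin-linked skeleton that lines the membrane, and in fly epithelia it is shared by the lateral skeleton with beta-Spec and the apical skeleton with the heavy spectrin encoded by kst. Thickveins is a receptor kinase that binds Decapentaplegic, a ligand of the BMP family, which patterns and grows the larval wing disc and later directs vein formation in the pupal wing. During metamorphosis wings evert, flatten and bring their epithelial layers together. How far the pupal wings sampled here had gone was not examined.

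Both transcripts differed between stages, in opposite directions. LanA was about 3-fold lower in pupal than in larval wings, and alpha-Spec was about 1.5-fold higher, in control and in Tkv wings. In control wings 20.8% of all transcripts passed the same test (limma, Benjamini-Hochberg adjusted p under 0.05) as lower in pupae and 19.7% as higher, and in Tkv wings 20.5% and 18.9% did. Neither transcript passed the test for a response to activated Tkv at either stage, which 1.40% of all transcripts passed in larvae and 3.16% in pupae. All values below are log2 intensities after quantile normalization between arrays, each from 5 probe pairs. The lowest value of either transcript on any array was 10.55, above the low point of 8.68 between the dim and bright modes of all normalized values. That low point was located after the data had been seen. Levels of the 2 transcripts are not compared with each other, since they come from different probes.

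The first comparison followed LanA through normal development. In larval controls LanA lay at 12.56, 13.46, 12.87, 13.23 and 13.14 in replicates 1 to 5. In pupal controls it lay at 11.67, 11.82, 11.09, 11.46 and 11.00. Each pupal array was below each larval array, with a gap of 0.74 between the groups, and replicate 1 was the lowest of the larval arrays. How many of all transcripts separated the stages in this way was not counted. No separation given here or below can therefore be called particular to these transcripts. The means were 13.05 ± 0.35 (SD, n = 5) and 11.41 ± 0.36 (SD, n = 5), which correspond to intensities of 8489 and 2717. LanA thus fell by 1.64 ± 0.25 on the log2 scale (SE), a 3.13-fold difference, with a limma adjusted p of 1.52e-05 and a 95% interval from -2.16 to -1.13. This change was larger than the spread between replicates, and an exact two-sided permutation test over the 10 arrays gave 0.00794, the smallest p that 252 splits allow. Values normalized between arrays are relative to the other transcripts. A fall in these bulk samples could mean, among other things, less LanA RNA per cell or fewer cells that make it, and these cannot be told apart. The stage change of alpha-Spec below has the same limit.

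The means of the same comparison in Tkv wings rest on other arrays, although of the same slides. Its SE, interval and limma p share 1 spread estimate with the control comparison. Larval Tkv wings had LanA values of 13.52, 12.93, 13.04, 12.83 and 13.28. In pupal Tkv wings the values were 11.46, 10.55, 11.26, 12.19 and 11.20. The groups again did not overlap, with a gap of 0.64. Replicates 2 and 4 of the pupal Tkv wings stood well apart, the first the lowest and the second the highest pupal value of either genotype. The means were 13.12 ± 0.28 (SD, n = 5) and 11.33 ± 0.59 (SD, n = 5). LanA fell by 1.79 ± 0.25 on the log2 scale (SE), a 3.46-fold difference, with a limma adjusted p of 6.02e-06 and a 95% interval from -2.30 to -1.28. In a fit of the Tkv arrays alone the SE was 0.26 and the limma adjusted p 0.000246. The exact permutation test again gave 0.00794.

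Alpha-Spec moved the other way by a smaller amount. Larval controls had alpha-Spec values of 12.18, 12.37, 12.28, 12.52 and 12.38, and pupal controls had 12.88, 13.19, 12.82, 12.89 and 12.56. Each pupal value was above each larval value, but replicate 5 of the pupal controls lay only 0.044 above replicate 4 of the larval controls. The means were 12.35 ± 0.13 and 12.87 ± 0.22 (SD, n = 5 each). Alpha-Spec rose by 0.52 ± 0.12 on the log2 scale (SE), a 1.44-fold difference, with a limma adjusted p of 0.00156 and a 95% interval from 0.27 to 0.78. The exact permutation test gave 0.00794, the smallest possible.

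In Tkv wings alpha-Spec lay at 12.12, 12.12, 12.44, 12.18 and 12.18 in larvae and at 12.90, 12.61, 12.93, 13.09 and 12.60 in pupae. The groups did not overlap, with a gap of 0.16. Replicate 3 of the larval Tkv wings was higher than the other 4, which lay close together. The means were 12.21 ± 0.13 and 12.83 ± 0.21 (SD, n = 5 each). The rise was 0.62 ± 0.12 on the log2 scale (SE), or 1.53-fold, with a limma adjusted p of 0.000365 and a 95% interval from 0.36 to 0.87. The exact permutation test gave 0.00794.

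**Figure D1:**
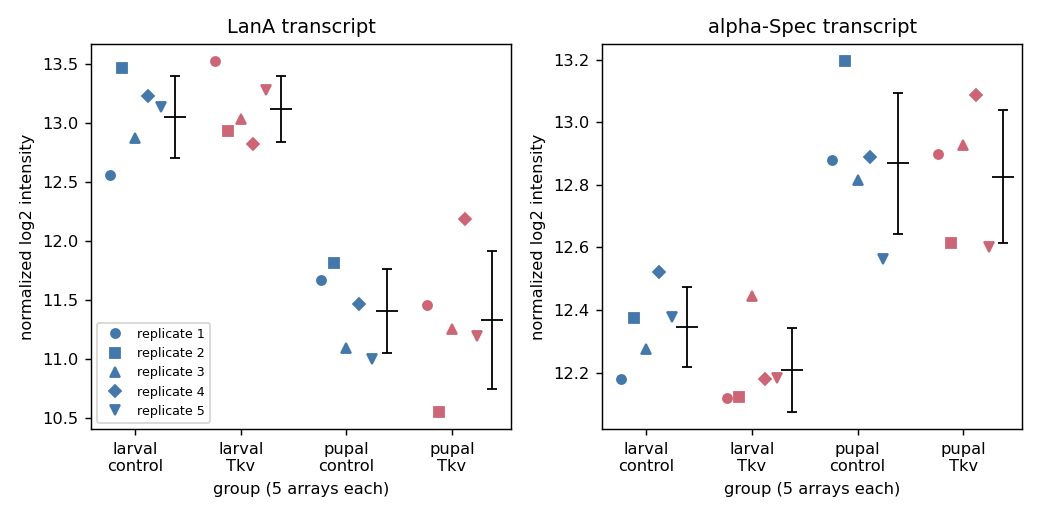
Normalized log2 intensity (vertical axes, different ranges) of LanA, left, and alpha-Spec, right, in the 4 groups; each symbol is 1 array, blue for control and red for Tkv, with a symbol shape per replicate number, and black marks give the mean ± SD of 5 arrays. LanA lies at 12.56 or above in larvae and at 12.19 or below in pupae, while alpha-Spec is at most 12.52 in larvae and at least 12.56 in pupae.

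Calls for stage were common on these arrays, near 1 in 5 transcripts in each direction, so the calls of LanA and alpha-Spec do not set them apart. The size of the LanA change was less frequent: 4.16% of all transcripts fell by as much or more in control wings and 3.10% in Tkv wings, and the median of the transcripts called lower was -0.86 and -0.84. The alpha-Spec change was smaller than the median of 0.91 among transcripts called higher in control wings and of 0.87 in Tkv wings, and 16.5% and 13.8% of all transcripts rose by as much or more. The call for alpha-Spec came with a small spread, since its residual SD of 0.18 was below the median of 0.30 over all transcripts, whereas that of LanA was 0.41.

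The difference between the 2 transcripts within an array does not depend on any scaling that the array shares. It gives the size of their relative change, and its direction follows from the opposite stage changes already described. From larval to pupal controls, LanA minus alpha-Spec went down on 5 of 5 slides, by between -1.59 and -2.47, with a mean change of -2.17 ± 0.35 (log2, SD over 5 slides). This is a 4.49-fold shift of LanA relative to alpha-Spec. In Tkv wings it went down on 5 of 5 slides, by between -1.54 and -2.87, with a mean of -2.41 ± 0.54 (SD), a 5.30-fold shift. In both genotypes an exact permutation test over 10 arrays gave 0.00794 and an exact sign-flip test within slides gave 0.0625, each the smallest p its design allows. Since neither transcript overlapped between stages, these tests add nothing to the separate calls.

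Each slide carried 1 array of every group, so the stage change could also be read slide by slide. In control wings LanA changed by -0.89, -1.65, -1.78, -1.76 and -2.14 on the slides of replicates 1 to 5. The first slide gave the smallest difference, and it holds the lowest larval control value. In Tkv wings the within-slide changes of LanA were -2.06, -2.38, -1.78, -0.64 and -2.09. Here the fourth slide gave the smallest difference, and it holds the highest pupal Tkv value.

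Alpha-Spec was higher in pupae on every slide in both genotypes. Its within-slide changes were 0.70, 0.82, 0.54, 0.37 and 0.19 in control wings and 0.78, 0.49, 0.48, 0.91 and 0.42 in Tkv wings. The slide of replicate 5 gave the smallest difference in both genotypes, and that of replicate 4 was small in controls and the largest in Tkv wings. An exact test that exchanges the stages within slides cannot give a p below 0.0625, and it gave that value in each of these 4 comparisons. Because larval and pupal values did not overlap in any of them, the shared sign and this p were fixed in advance. They add no support to the stage calls.

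**Figure D2:**
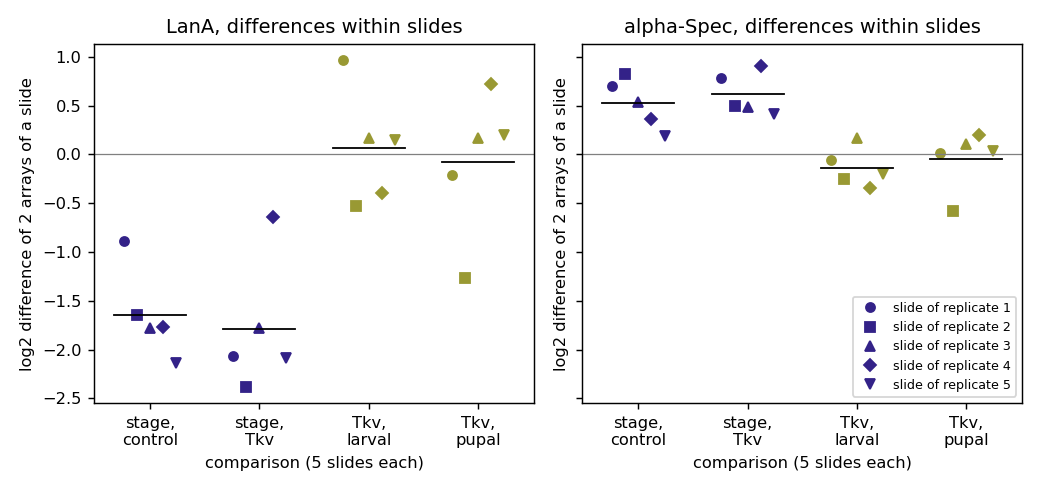
Log2 difference between 2 arrays of the same slide (vertical axis) for LanA, left, and alpha-Spec, right; purple symbols are stage changes (pupal minus larval), olive symbols are Tkv responses (Tkv minus control), 1 symbol per slide, and black lines are means of 5 slides. The stage changes keep their sign on all 5 slides for both transcripts, which follows from groups that do not overlap. The Tkv responses fall on both sides of 0.

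The second question was whether activated Tkv altered either transcript. In larval wings LanA averaged 13.12 in Tkv and 13.05 in control wings, and the 2 sets of values overlapped. The response was 0.070 ± 0.25 on the log2 scale (SE, limma adjusted p = 0.973), higher on 3 of 5 slides, with single slides between -0.53 and 0.96. The 95% interval ran from 0.735-fold to 1.50-fold of the control level. In pupal wings LanA averaged 11.33 in Tkv and 11.41 in control wings. The response was -0.076 ± 0.25 (SE, limma adjusted p = 0.960), again higher on 3 of 5 slides, and the 95% interval ran from 0.664-fold to 1.35-fold. The values are compatible with any change inside these intervals, which use 1 spread shared by all groups. In fits of the compared groups alone the SE was 0.19 in larvae and 0.28 in pupae.

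The pupal LanA response rested on slides that went opposite ways. It was -1.26 on the slide of replicate 2 and 0.73 on that of replicate 4, with -0.21, 0.17 and 0.20 on the others. Without replicate 2 of the pupal Tkv wings the response was 0.12, and without replicate 4 it was -0.29, neither of which passed the limma test (adjusted p of 0.916 and 0.662). Within pupal Tkv wings LanA ranged over 1.64 on the log2 scale, or 3.11-fold, about as much as the stage change itself. In the other 3 groups the range was 0.70 to 0.91. The array of replicate 2 also had the lowest median of all 20 before normalization, at 9.19 against up to 9.59. The LanA value of that array was 10.45 before normalization and 10.55 after it. The part of that array median in the LanA value was not tested.

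Alpha-Spec gave narrower limits. In larval wings it averaged 12.21 in Tkv and 12.35 in control wings, lower on 4 of 5 slides. The response was -0.14 ± 0.12 (SE, limma adjusted p = 0.799), and the 95% interval ran from 0.763-fold to 1.09-fold. In pupal wings the averages were 12.83 and 12.87. The response was -0.043 ± 0.12 (SE, limma adjusted p = 0.953), with 1 of 5 slides lower, that of replicate 2 at -0.58, and an interval from 0.814-fold to 1.16-fold. Exact permutation tests over 10 arrays gave 0.151 in larvae and 0.81 in pupae for alpha-Spec, and 0.738 and 0.802 for LanA.

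Neither of the 2 transcripts passed the limma test for a Tkv response, and neither had an unadjusted p under 0.05, the lowest being 0.278 for alpha-Spec in larvae. The difference between the pupal and larval responses, which is also the difference between the stage changes of the genotypes, passed for 0.679% of transcripts. For LanA it was -0.15 ± 0.35 (SE, limma adjusted p = 0.971), with a 95% interval from -0.87 to 0.58. For alpha-Spec it was 0.093 ± 0.17 (SE, limma adjusted p = 0.960), with an interval from -0.27 to 0.45. The stage changes of LanA and of alpha-Spec were thus not shown to differ between control and Tkv wings, and the limits are wider for LanA than for alpha-Spec.

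**Figure D3:**
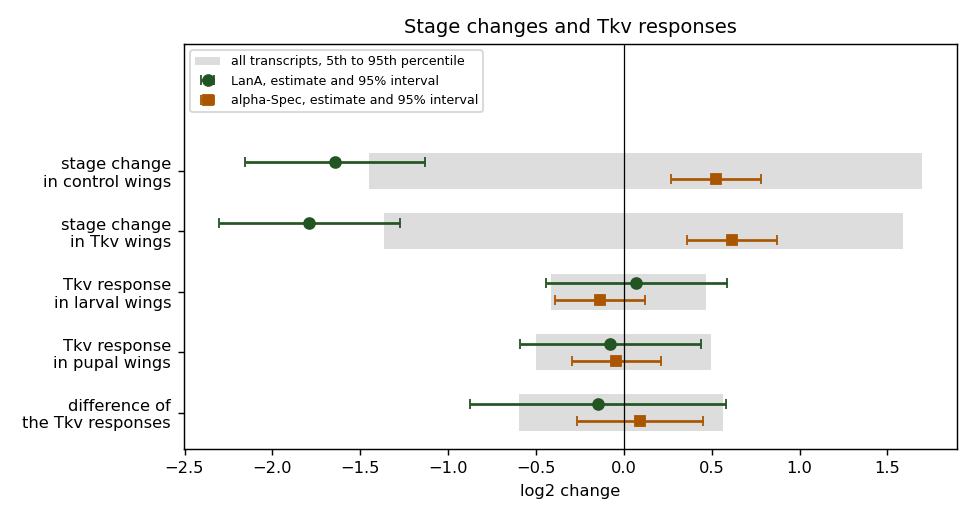
Log2 change (horizontal axis) of LanA (green circles) and alpha-Spec (orange squares) in the 5 comparisons, with 95% intervals from limma; grey bars span the 5th to 95th percentile of all 15473 transcripts. Both LanA stage changes, at -1.64 and -1.79, lie beyond the lower end of the grey bar, both alpha-Spec stage changes lie inside it, and all intervals of the Tkv responses and of their difference cross 0.

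Ordered by mean level, LanA ran from larval Tkv over larval control and pupal control to pupal Tkv wings. Neighbours of the same stage in that order did not differ beyond their spread, and only the step from larval to pupal controls separated groups without overlap. For alpha-Spec the order was pupal control, pupal Tkv, larval control and larval Tkv wings. Here too the neighbours of the same stage overlapped, and the lowest pupal Tkv value of 12.60 lay above the highest larval control value of 12.52.

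Around their group means, the 2 transcripts deviated together. Over the 20 arrays the deviations had a Pearson correlation of 0.682 and a Spearman correlation of 0.672, and they had the same sign on 16 arrays. Without the 2 arrays farthest out for LanA, replicates 2 and 4 of the pupal Tkv wings, the Pearson value was 0.562. On those arrays LanA deviated by -0.78 and 0.86 and alpha-Spec by -0.21 and 0.26. Of the other transcripts, 3.38% deviated with LanA at least as closely as alpha-Spec did. These points share the array, its RNA sample and its normalization, so the correlation is a description. Across stages the same 2 transcripts went opposite ways.

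**Figure D4:**
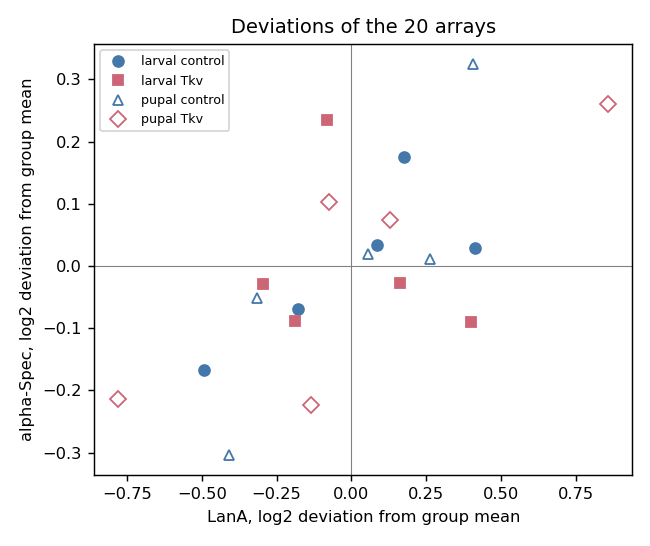
Deviation of each of the 20 arrays from its group mean in log2 intensity, for LanA (horizontal axis) and alpha-Spec (vertical axis); filled symbols are larval and open symbols pupal, blue control and red Tkv. The arrays run from lower left to upper right (Pearson 0.682), with pupal Tkv replicates 2 and 4 at the ends of the LanA axis.

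Likeness to other transcripts was measured as the correlation of levels over the 20 arrays, which includes the difference between stages. The pattern most like that of LanA belonged to FBtr0084691 (Pearson 0.969 over 20 arrays), which changed by -2.26 in control and -2.86 in Tkv wings between stages, and the next was FBtr0087388 (0.957), with -1.13 and -1.02. For alpha-Spec the closest were FBtr0087544 (0.966), with stage changes of 1.16 and 1.29, and FBtr0072855 (0.966), with 1.43 and 1.79. These IDs have no gene name here. A correlation of at least 0.9 with LanA was reached by 334 of 15472 other transcripts, and with alpha-Spec by 125. The most opposite patterns had correlations of -0.966 with LanA and -0.942 with alpha-Spec.

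The partners of LanA and alpha-Spec could not be placed. Of 35 genes in 3 lists (basement membrane, laminin receptors and spectrin skeleton) only LanA and alpha-Spec themselves had a named transcript on the array. Other laminin chains, integrins and beta-spectrins were therefore not analysed here. None of 33 marker genes of the wing epithelium, myoblasts, tracheal cells, haemocytes, nervous tissue and fat body was named either, so the labelled tissue was not checked against its markers, and the part of other cell types in the stage changes was not tested. In all, 17 transcripts had a single gene symbol. Of these, 4 were called higher and 6 lower in pupal control wings, and 4 higher and 7 lower in pupal Tkv wings. These counts include LanA and alpha-Spec, which were chosen with earlier results known. Of all transcripts, 19.7% were called higher and 20.8% lower in control wings, and 18.9% and 20.5% in Tkv wings. Whether the named transcripts differ from all transcripts was not tested.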

How the data were processed

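Per the submitters' processing notes the deposited intensity values came from RMA, and per the file headers each rests on 3 to 5 probe pairs. Versions, settings and genome build are not given in these sources, and no coordinates are given. The deposited series table holds log2 values of the same intensities, equal to within 5.0e-09. A deposited score between 0 and 1, headed as an error, has no stated unit and enters no test.

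Log2 intensities were quantile-normalized between all 20 arrays, without a filter. limma 3.58.1 in R 4.3.3 fitted 4 group means (16 residual degrees of freedom), with no term for the slide. Its p-values are two-sided and Benjamini-Hochberg adjusted over 15473 transcripts, with calls under 0.05. Exact tests used SciPy 1.17.1; jsonlite 2.0.0, Python 3.11.15 and matplotlib 3.10.9 were also used. Fits and exact tests were tested on simulated data. The series design speaks of independently isolated samples, and p-values measure the spread between these. Precision is set by the number of arrays.

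Of the 15473 IDs, 44 occurred among the synonyms of a RefSeq table (Release 6), 17 with a single symbol. Both transcripts, all lists and the naming rule (these 2 transcripts, those most and least correlated with each, and list members) were chosen with earlier results of these data known. A planned search for promoter motifs was not run. File names gave slide and array position. Alternatives were other normalizations, the series table, the slide as a block with and without array position, a filter on dim transcripts, another variance model, fits of the compared groups alone, and leaving out arrays or replicate numbers.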

Additional observations from a re-analysis of the deposited data

Results flagged for a closer look

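Of 8 groups of 5 arrays, 1 held a value that stood apart from the rest of its group; by chance about 1 group in 20 does. Alpha-Spec in larval Tkv wings was 12.44 in replicate 3, and the others lay between 12.12 and 12.18. Without that array the larval Tkv response of alpha-Spec was -0.19 (limma adjusted p = 0.625), and its stage change in Tkv wings was 0.68 (limma adjusted p = 0.000278).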

How the results depend on the processing

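The stage changes of LanA and alpha-Spec kept their direction and passed the limma test under all 34 alternatives in both genotypes, with a highest adjusted p of 0.0153. Not all of these could move the estimate. The slide as a block without position, the variance model, the dim filter and the compared groups alone left it unchanged. Arrays of the other genotype entered only through normalization and the shared spread, and the series table repeats the deposited values. LanA lay between -1.83 and -1.52 in control and between -2.08 and -1.59 in Tkv wings, and alpha-Spec between 0.44 and 0.61 and between 0.55 and 0.68. No Tkv response of the 2 transcripts passed under any alternative. That of alpha-Spec in larvae stayed below 0, between -0.21 and -0.085, and the others changed sign under some alternatives. Leaving out arrays gave -0.15 to 0.22 (LanA, larval), -0.29 to 0.22 (LanA, pupal), -0.12 to 0.092 (alpha-Spec, pupal), and for the difference of responses -0.47 to 0.11 (LanA) and -0.018 to 0.20 (alpha-Spec). With slide and array position as terms, LanA gave -0.092 in larvae and 0.082 for the difference. The cause was not tested.

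Same-numbered arrays share a slide, but only 13 of 30 same-numbered pairs had deviations correlated above 0.1, so the numbers did not meet the condition for pairs. Even so, 30 of 60 best matches were of the same number, where random matching gives 12, and the median correlation was 0.072 for the same number and -0.029 for different numbers. The shared slide is therefore kept as a block here. With the slide as a fixed replicate block the stage changes of LanA stayed at -1.64 (limma adjusted p = 9.29e-05) and -1.79 (4.54e-05) and those of alpha-Spec at 0.52 (0.00207) and 0.62 (0.000595), and 255, 600 and 124 transcripts were called for the larval, pupal and differing responses. The change of LanA relative to alpha-Spec, -2.17 in control and -2.41 in Tkv wings, had a p of 0.0625 when tested within slides, the smallest that 5 slides allow.

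The background counts moved more. Larval Tkv responses numbered 216 as reported, 124 with slide and position, and 111 to 230 when arrays were left out, with 142 without larval control replicate 3. Pupal responses numbered 489, 289 with the pupal arrays alone, and 266 to 578 when arrays were left out. Differences of responses numbered 105, 66 with slide and position, and 48 to 107, with 69 without larval control replicate 3. RMA can compress differences of dim transcripts. Both transcripts lay above the low point of 8.68 on all 20 arrays, and compression was not tested.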

Other observations

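The deposited score beside each intensity, whose unit is not stated, was unusual for LanA on a single array. It was 0.345 in replicate 2 of the pupal controls and between 0.923 and 0.991 on the other arrays, and only 2.45% of the transcripts of that array had a lower score. Alpha-Spec had 0.987 on the same array and 0.935 to 0.990 over all 20. The LanA level on that array, 11.82, was the highest of the pupal controls, and without it the stage change of LanA in control wings was -1.75 (limma adjusted p = 1.93e-05).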
